A study of Canis lupus familiaris with 18 samples.

Results

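NPR3 and 5 further genes of natriuretic peptide signalling were followed in the fat of dogs that had been fed freely or held at their body weight. The 6 genes are the C-type peptide NPPC, the peptide OSTN, the receptors NPR1, NPR2 and NPR3, and the kinase PRKG1. They were found as every probe set (a group of short probes for 1 transcript) whose only platform gene symbol is 1 of these names, which gave 12 probe sets of 42924 and 6 genes of 15115 with a symbol of their own. NPR3 had been picked because it was higher in subcutaneous fat of ad libitum dogs, so its values in that comparison are a description with no test, and so are its depot differences, which use the same subcutaneous arrays. Its feeding difference in gonadal fat was measured on other arrays of the same dogs and was tested.

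The animals were intact female Beagles aged 4 years, all eating the same commercial diet and all fasted overnight before sampling. In the ad libitum group 5 dogs (numbers 2, 5, 6, 7 and 8) ate freely for 24 weeks and were obese, and in the control group 4 dogs (numbers 1, 3, 4 and 9) were fed to keep their starting weight and were lean. Gonadal and subcutaneous fat were taken from each dog at 24 weeks, which gives 18 Affymetrix arrays in 4 groups, 1 array per dog and depot. Each value below is a log2 signal, dogs are given in the order of those numbers, and a log2 value of 4 is used as the floor below which a signal is not read as a level.

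Natriuretic peptides made by the heart, and C-type natriuretic peptide made in many tissues, act through receptors on the cell surface. NPR1 binds the cardiac peptides and NPR2 the C-type peptide, and both carry a guanylyl cyclase that makes cyclic GMP, which activates the kinase encoded by PRKG1. NPR3 has no cyclase and takes all these peptides into the cell for breakdown, so it is known as the clearance receptor. In human fat cells cyclic GMP from NPR1 drives lipolysis, and the balance between NPR3 and NPR1 is often used to describe how a fat depot can respond to the peptides.

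The tissue label was borne out by 6 of 6 adipocyte markers (ADIPOQ, PLIN1, PLIN4, LPL, CIDEC and FABP4), which lay at or above the floor in all 18 arrays. In 4 arrays transcripts of another tissue were prominent, read as the median of a marker list relative to its median over the 18 arrays. Of 11 skeletal muscle markers 10 were on the array, and their median stood 7.35 log2 units up in gonadal fat of ad libitum dog 2, 8.71 in subcutaneous fat of control dog 3 and 6.85 in subcutaneous fat of control dog 4. The 8 markers of ciliated and oviduct epithelium stood 6.02 up in gonadal fat of ad libitum dog 6 and 4.33 up in subcutaneous fat of control dog 4. That subcutaneous array of dog 4 also had a mesothelium marker score of 2.16. The score was -2.51 to -2.44 in subcutaneous fat of ad libitum dogs and -2.49 to -2.45 in that of the other control dogs. Weaker muscle transcripts were present in subcutaneous fat of ad libitum dog 7, with a score of 1.52 and 9 of 10 markers at or above the floor. The array of dog 7 lay under the limit of 4 log2 units used to set arrays apart and was kept. The labels give the subcutaneous arrays, but not the gonadal ones, as already submitted once with other processed values, so depot and an array batch cannot be told apart. Whether the arrays of both depots were normalized in 1 run is not given in the sources used here.

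No signal above the floor was seen for either peptide gene. NPPC, which encodes C-type natriuretic peptide, lay between 2.56 and 2.74 in the 18 arrays, and OSTN, whose secreted product binds NPR3 and keeps the peptides from being cleared, lay between 2.50 and 2.74. Neither was tested, and values below the floor say only that these probe sets gave no readable signal. The other 4 genes, with 10 probe sets, passed the filter of at least log2 4 in at least 4 arrays and were tested within the 21484 probe sets that passed it.

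NPR3, the clearance receptor, had the largest feeding difference of the members in gonadal fat in log2 units, though not relative to its standard error. In subcutaneous fat, where NPR3 was chosen, no such order is read. In gonadal fat its brightest probe set read 9.82, 9.60, 6.82, 9.89 and 10.22 in ad libitum dogs and 8.32, 6.39, 8.33 and 7.72 in control dogs. Of the 5 ad libitum dogs 4 lay above every control dog, and dog 6, whose array carries ciliated-cell transcripts, lay below 3 of the 4 controls. The group means were 9.27 ± 1.39 in ad libitum dogs and 7.69 ± 0.91 in control dogs (SD, n = 5 and n = 4). The difference of 1.58 ± 0.69 log2 units (limma estimate ± standard error, 95% interval 0.13 to 3.03), or 2.99-fold, did not pass after adjustment over all probe sets (adjusted p = 1). Without the gonadal array of dog 6 the difference was 2.20 (limma adjusted p = 0.832), and without control dog 3 it was 1.15 (adjusted p = 1).

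The other 3 NPR3 probe sets followed the brightest one closely. Their differences between ad libitum and control dogs in gonadal fat were 1.67 ± 0.70, 2.08 ± 0.74 and 2.04 ± 0.83 log2 units, with 95% limma intervals of 0.20 to 3.14, 0.51 to 3.65 and 0.29 to 3.78. The correlation between any 2 of the 4 probe sets over the 18 arrays was 0.973 to 0.994 in 6 pairs. They read 1 transcript on the same arrays, so they are repeated readings of 1 gene and not separate evidence.

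In subcutaneous fat, where NPR3 had been chosen, the same probe set read 10.68, 7.75, 8.89, 9.26 and 10.24 in ad libitum dogs and 7.02, 5.42, 5.66 and 5.99 in control dogs. Every ad libitum dog lay above every control dog, the closest being ad libitum dog 5 and control dog 1. Control dogs 3 and 4, whose arrays carry muscle transcripts, held the lowest values, 5.42 and 5.66. Among all probe sets tested 5.78% were without overlap in that direction. The means were 9.36 ± 1.16 in ad libitum dogs and 6.02 ± 0.71 in control dogs (SD, n = 5 and n = 4), a difference of 3.34 ± 0.69 log2 units, or 10.1-fold. The other NPR3 probe sets differed by 3.73 ± 0.70 and 3.79 ± 0.74 log2 units. The dimmest of the 4 was below the floor in all 4 control dogs, so its difference is a bound of at least 11.9-fold.

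**Figure D1:**
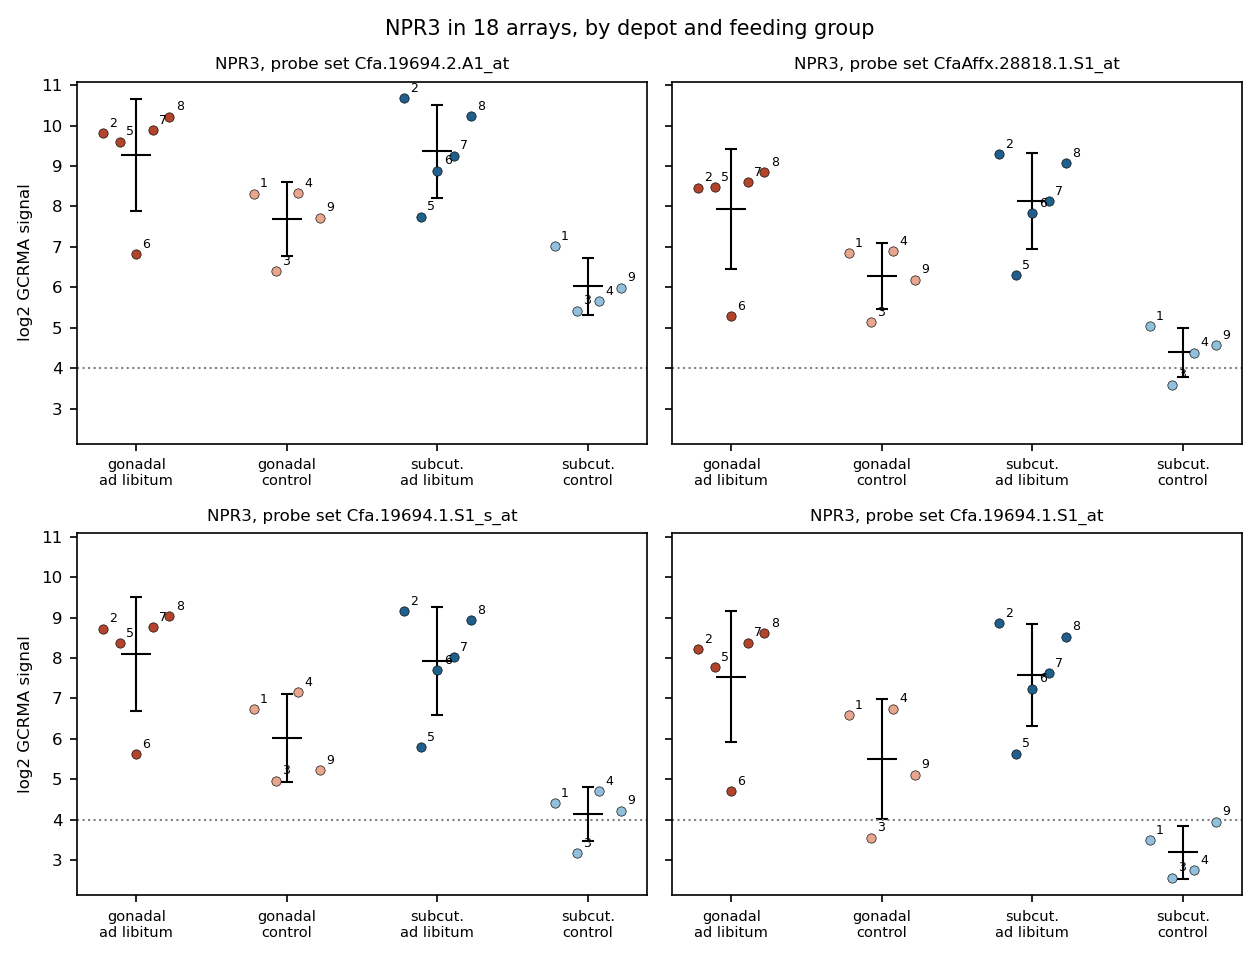
Log2 signal of the 4 NPR3 probe sets (vertical axis) in each of the 18 arrays, grouped by depot and feeding (horizontal axis). Points are dogs with their numbers, bars are the mean and SD, and the dotted line is the floor of log2 4. Gonadal ad libitum dog 6 stands apart from the other 4 dogs of its group in all 4 panels, and in subcutaneous fat the feeding groups do not overlap.

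Set in order, the NPR3 level averaged 9.36 in subcutaneous ad libitum, 9.27 in gonadal ad libitum, 7.69 in gonadal control and 6.02 in subcutaneous control arrays. The top 2 groups differed by far less than the spread within either. In control dogs NPR3 was higher in gonadal than in subcutaneous fat in 4 of 4 dogs, by 1.29, 0.97, 2.66 and 1.74 log2 units in dogs 1, 3, 4 and 9, and the fitted difference was 1.67 ± 0.72. In ad libitum dogs gonadal minus subcutaneous NPR3 was -0.86, 1.85, -2.07, 0.64 and -0.02 log2 units in dogs 2, 5, 6, 7 and 8, with a fitted difference of -0.09 ± 0.65. The depot order was therefore the same in every control dog and mixed among ad libitum dogs. The feeding difference in gonadal fat minus that in subcutaneous fat was -1.76 ± 0.97 log2 units, given without a test because it holds the comparison that chose the gene.

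NPR1, the cyclase receptor of the cardiac peptides, showed no readable difference between feeding groups. In gonadal fat it read 7.92, 8.30, 8.80, 8.29 and 7.90 in ad libitum dogs and 8.23, 8.28, 8.05 and 7.58 in control dogs. The groups overlapped, and the difference was 0.21 ± 0.30 log2 units (95% interval -0.43 to 0.85, limma adjusted p = 1). In subcutaneous fat NPR1 read 7.11, 7.35, 7.42, 7.52 and 7.01 in ad libitum dogs and 7.21, 6.46, 8.24 and 8.10 in control dogs, a difference of -0.22 ± 0.30. The subcutaneous control dogs were the most scattered group, with an SD of 0.83 against 0.21 in subcutaneous ad libitum dogs, and control dogs 3 and 4, whose arrays carry muscle transcripts, were its lowest and highest members.

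NPR2, the cyclase receptor of the C-type peptide, was lower in ad libitum dogs in both depots, by less than NPR3 was higher, without passing the test in gonadal fat. Its brightest probe set read 8.69, 9.31, 8.25, 8.72 and 8.71 in gonadal fat of ad libitum dogs and 9.32, 9.37, 9.16 and 9.60 in control dogs. All ad libitum dogs other than dog 5 lay below every control dog. The difference was -0.63 ± 0.20 log2 units, or 1.55-fold lower (95% interval -1.05 to -0.21, limma adjusted p = 1). The other 2 NPR2 probe sets differed by -0.40 ± 0.15 and -0.43 ± 0.17. Without dog 5 the brightest differed by -0.77 (limma adjusted p = 1).

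In subcutaneous fat the brightest NPR2 probe set read 8.04, 8.71, 8.50, 8.74 and 8.75 in ad libitum dogs and 9.13, 9.39, 9.00 and 8.89 in control dogs. In all 3 NPR2 probe sets every ad libitum dog lay below every control dog, with differences of -0.56 ± 0.20, -0.79 ± 0.15 and -0.68 ± 0.17 log2 units. Over all probe sets the share without overlap on the lower side was 4.37%. This comparison is the one that chose NPR3, so nothing more is read from it.

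PRKG1, the cyclic GMP-dependent kinase, varied widely in gonadal fat and lay near the floor in subcutaneous fat. In gonadal fat it read 4.75, 5.97, 5.53, 4.79 and 7.45 in ad libitum dogs and 4.76, 8.71, 5.30 and 7.00 in control dogs, a feeding difference of -0.74 ± 0.68 log2 units (limma adjusted p = 1). In subcutaneous fat it read 4.21, 4.50, 4.26, 3.34 and 4.75 in ad libitum dogs and 3.46, 4.74, 4.76 and 4.65 in control dogs, a difference of -0.19 ± 0.68. The feeding groups overlapped in both depots. A second PRKG1 probe set was below the floor in all 9 subcutaneous arrays and correlated with the first at 0.953 over the 18 arrays.

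**Figure D2:**
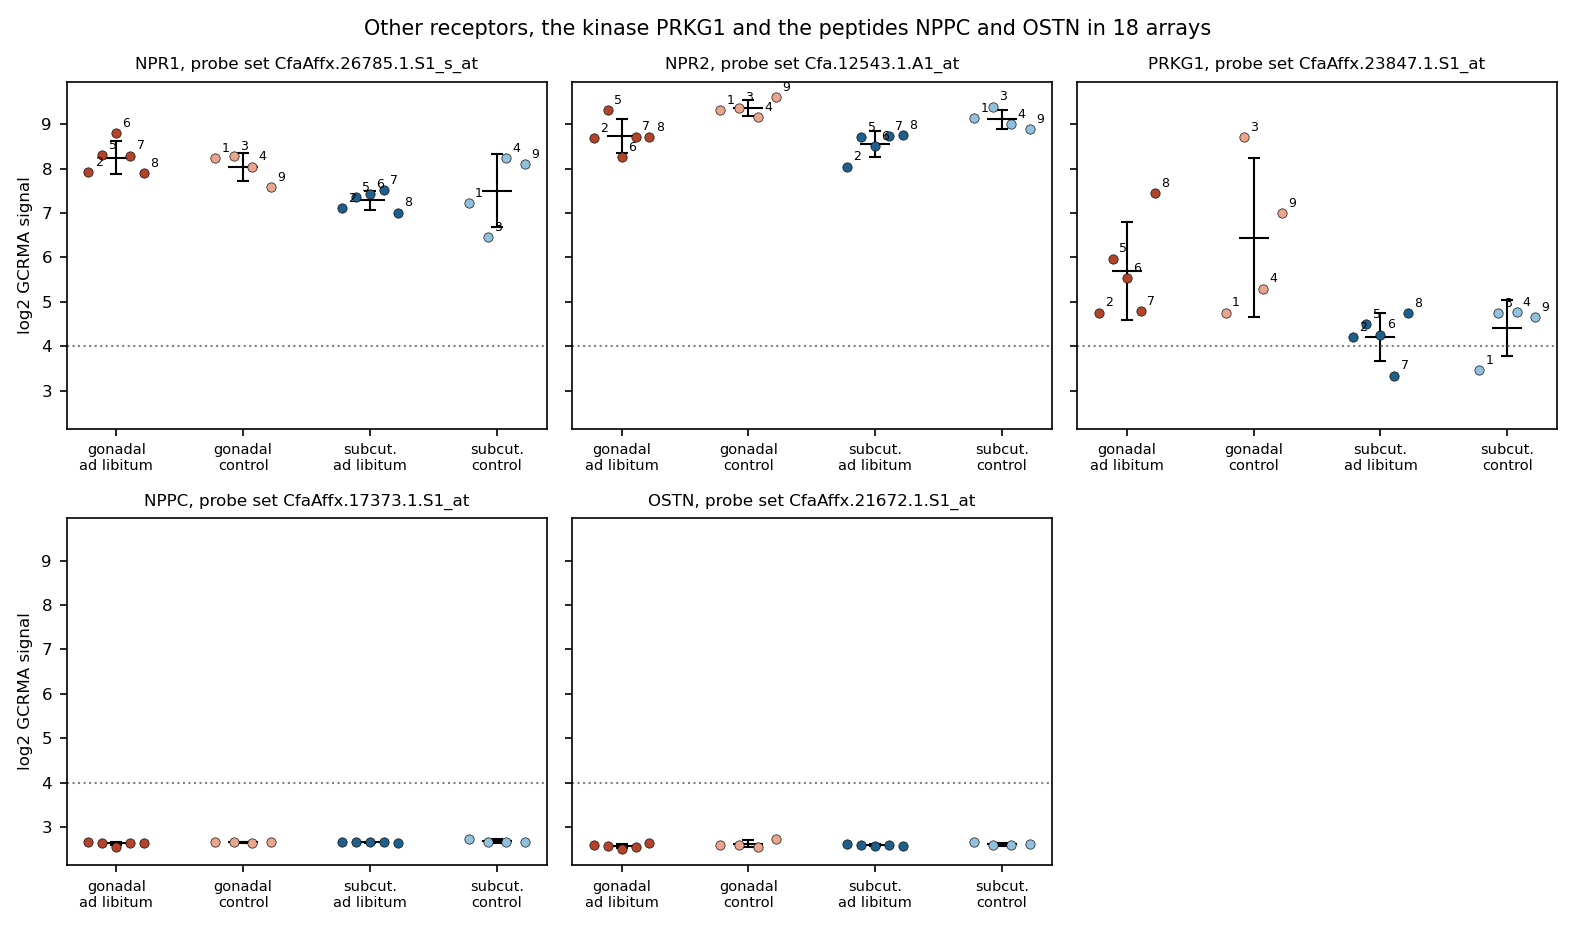
Log2 signal (vertical axis) of the brightest probe set of NPR1, NPR2, PRKG1, NPPC and OSTN in each array, grouped by depot and feeding. Points are dogs, bars are the mean and SD, and the dotted line is the floor of log2 4. NPPC and OSTN stay below the floor in all 18 arrays, and the highest PRKG1 value is gonadal control dog 3 at 8.71.

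Counted over the 10 tested member probe sets, 0 passed limma's adjusted p threshold of 0.05 for feeding in gonadal fat, where 0% of all 21484 probe sets passed. At an unadjusted p under 0.05 there were 7 of the 10, the 4 of NPR3 on the higher side and the 3 of NPR2 on the lower side, beside 2.47% (531) of all probe sets. These 7 are repeated readings of NPR3 and NPR2 only, so their count cannot be weighed against that share. NPR3 had also been picked for its feeding difference in the other depot of the same dogs. No calls are counted for subcutaneous fat, the comparison behind the choice of NPR3. The median difference over the 10 probe sets was -0.05 log2 units in gonadal and -0.17 in subcutaneous fat, against 0.01 over all probe sets in either depot.

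**Figure D3:**
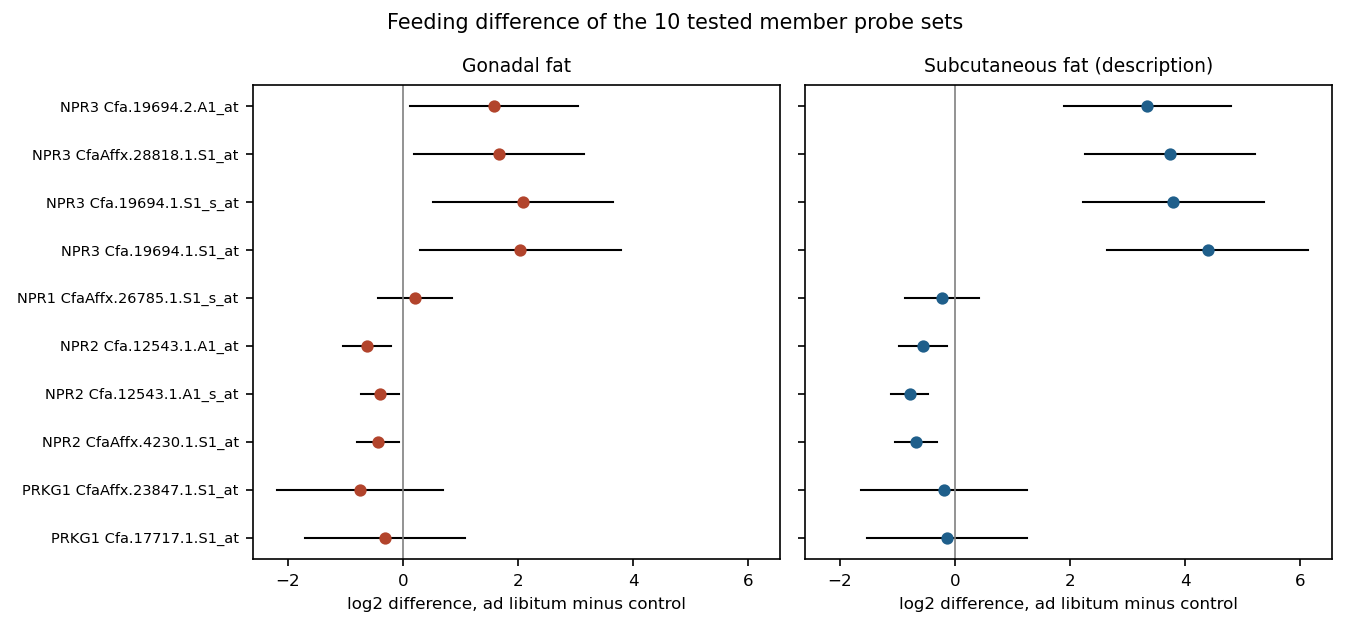
Log2 difference, ad libitum minus control, of the 10 tested member probe sets in gonadal fat (left) and subcutaneous fat (right), with 95% limma intervals. The 4 NPR3 probe sets lie right of 0 and the 3 NPR2 probe sets left of 0 in both panels, while the intervals of NPR1 and PRKG1 include 0.

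The change of NPR3 relative to the cyclase receptors was read within each array, as the log2 signal of NPR3 minus that of NPR1 on the same array. Different probe sets bind with different strength, so only changes of this difference between arrays are interpretable, not its sign. In gonadal fat it was 1.91, 1.30, -1.99, 1.60 and 2.33 in ad libitum dogs and 0.09, -1.89, 0.28 and 0.14 in control dogs. The 4 ad libitum dogs other than dog 6 lay above every control dog, and dog 6 below every control dog. The groups differed by 1.38 (exact two-sided permutation test over all regroupings of the 9 dogs, p = 0.230). Leaving out 1 dog at a time moved the difference between 0.86 without control dog 3 (exact permutation p = 0.5) and 2.13 without ad libitum dog 6, the low dog, for which no test is read because the dog stands out by the value tested. In subcutaneous fat the difference was 3.57, 0.39, 1.47, 1.74 and 3.23 in ad libitum dogs and -0.19, -1.04, -2.58 and -2.11 in control dogs, without overlap, and the means differed by 3.56.

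Set against NPR2, the contrast in gonadal fat was wider. NPR2 itself differed by -0.63 log2 units there, so this contrast is not a reading of NPR3 alone. NPR3 minus NPR2 was 1.13, 0.29, -1.43, 1.17 and 1.52 in ad libitum dogs and between -2.98 and -0.83 in the 4 control dogs, and the means differed by 2.21 (exact two-sided permutation p = 0.0317). NPR3 minus the median of the adipocyte markers on the same array was -4.11, -3.66, -5.63, -3.74 and -3.45 in ad libitum dogs and -5.86, -6.34, -5.39 and -5.97 in control dogs, a difference of 1.77 (exact two-sided permutation p = 0.0238). Dog 6 was the lowest ad libitum dog in each of these readings. Adjusted by Benjamini-Hochberg over the 3 readings in gonadal fat, the exact p was 0.230 against NPR1, 0.0476 against NPR2 and 0.0476 against the adipocyte markers. All 3 readings share the NPR3 values. The reading against NPR1 was the one set out for testing, and those against NPR2 and the adipocyte markers were added beside it. With 1 dog left out at a time the difference stayed positive, at 1.77 to 2.70 against NPR2 and 1.61 to 2.15 against the adipocyte markers. The unadjusted exact permutation p was above 0.05 when any dog but dog 6 was left out against NPR2 (0.0536 to 0.107), and when any dog but dog 4 or 6 was left out against the adipocyte markers (0.0536 to 0.0571).

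**Figure D4:**
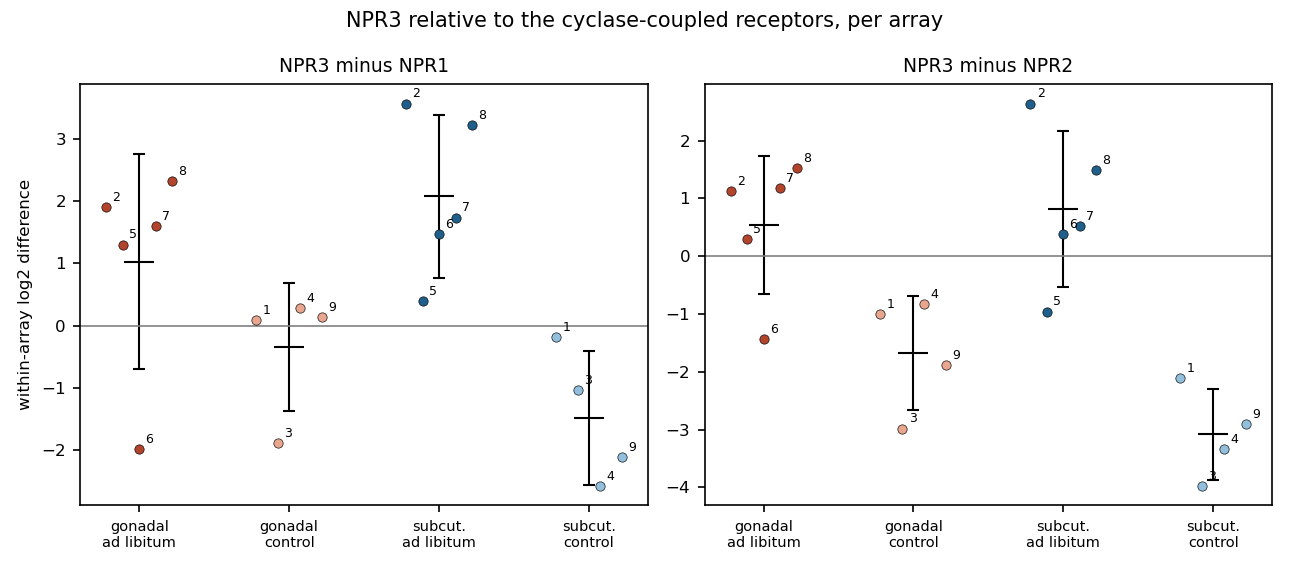
Within-array log2 difference of NPR3 minus NPR1 (left) and NPR3 minus NPR2 (right) for each dog, by depot and feeding group, with group mean and SD. In subcutaneous fat the groups do not overlap in either panel, and in gonadal fat ad libitum dog 6 lies below every control dog for NPR3 minus NPR1 and among the control dogs for NPR3 minus NPR2.

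NPR3 moved with the adipocyte markers from array to array. The adipocyte marker score, the median of 6 markers relative to the 18 arrays, ranged from -1.05 to 0.52 in gonadal ad libitum, -0.99 to 0.66 in gonadal control, -1.47 to 0.22 in subcutaneous ad libitum and -1.28 to -0.25 in subcutaneous control arrays. Over the 18 arrays of 9 dogs its correlation with NPR3 was 0.738, and 0.857 after the 4 group means were removed. Within each group the array with the lowest adipocyte score was the one with the lowest NPR3. In bulk tissue fewer cells of a type and less RNA per cell cannot be told apart.

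RNA length moved with NPR3 too. The actin 3' minus 5' signal, which is larger where RNA is shorter, averaged 3.31 ± 0.91 in gonadal ad libitum, 2.91 ± 0.91 in gonadal control, 3.49 ± 0.77 in subcutaneous ad libitum and 4.75 ± 1.02 in subcutaneous control arrays (SD), and correlated with NPR3 at -0.656 over the 18 arrays. With it as a covariate the NPR3 difference in subcutaneous fat was 2.30 ± 0.61 and in gonadal fat 1.91 log2 units. Over the same 18 arrays NPR3 correlated with marker scores of progenitors at -0.541, of ciliated epithelium at -0.401, of skeletal muscle at -0.339 and of endothelium at 0.313. The values were -0.274 for smooth muscle and pericytes, -0.070 for macrophages and -0.023 for mesothelium. All these scores come from the same arrays and their part in the NPR3 difference was not tested beyond the within-array and covariate values given.

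Between depots NPR1 was higher in gonadal fat of ad libitum dogs and just missed the threshold. It was higher in 5 of 5 ad libitum dogs, by 0.80, 0.95, 1.38, 0.78 and 0.89 log2 units in dogs 2, 5, 6, 7 and 8, and every gonadal array lay above every subcutaneous array, as in 4.18% of all probe sets. The fitted difference was 0.96 ± 0.29, or 1.94-fold (95% interval 0.36 to 1.56, limma adjusted p = 0.0521). With the dog as a block, which uses the pairing of depots, limma's adjusted p was 0.0300 for a random block and 0.0760 for a fixed block, in fits where 11.6% and 8.53% of all probe sets passed. Leaving out each dog in turn gave adjusted p values of 0.0199 to 0.133. In control dogs NPR1 was higher in gonadal fat in 2 of 4 dogs and the difference was 0.53 ± 0.32 (adjusted p = 0.373).

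Of the 6 probe sets of members other than NPR3, 0 passed for depot in ad libitum dogs, where 7.19% of all probe sets passed, and 0 in control dogs, where 2.92% passed. The brightest NPR2 probe set was higher in gonadal fat in 2 of 5 ad libitum dogs, by 0.19 ± 0.19 log2 units (limma adjusted p = 0.584). The second-brightest was higher in 5 of 5, by 0.44 ± 0.14 log2 units (limma adjusted p = 0.0745). It passed with the dog as a random block (adjusted p = 0.0348) or a fixed block (adjusted p = 0.0442). The dimmest was higher in 4 of 5, by 0.37 ± 0.16 (limma adjusted p = 0.179).

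PRKG1 was higher in gonadal than in subcutaneous fat in 9 of 9 dogs by its brightest probe set, and in 8 of 9 by the second, but did not pass. The differences of the brightest were 0.55, 1.47, 1.27, 1.45 and 2.70 log2 units in ad libitum dogs and 1.30, 3.97, 0.54 and 2.35 in control dogs. In dogs 7 and 1 the subcutaneous values, 3.34 and 3.46, lay below the floor, so their differences of 1.45 and 1.30 are not read as sizes. The fit gave 1.49 ± 0.64 in ad libitum dogs (limma adjusted p = 0.171) and 2.04 ± 0.72 in control dogs (adjusted p = 0.125). The score of 6 smooth muscle and pericyte markers (ACTA2, MYH11, CNN1, RGS5, TAGLN and PDGFRB) moved with it. It ranged from -0.25 to 1.56 in gonadal and -2.16 to -0.24 in subcutaneous fat of ad libitum dogs, and from 0.33 to 2.12 in gonadal and -0.58 to 0.78 in subcutaneous fat of control dogs. Its correlation with PRKG1 was 0.791 over the 18 arrays, and its part in the depot difference was not tested.

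**Figure D5:**
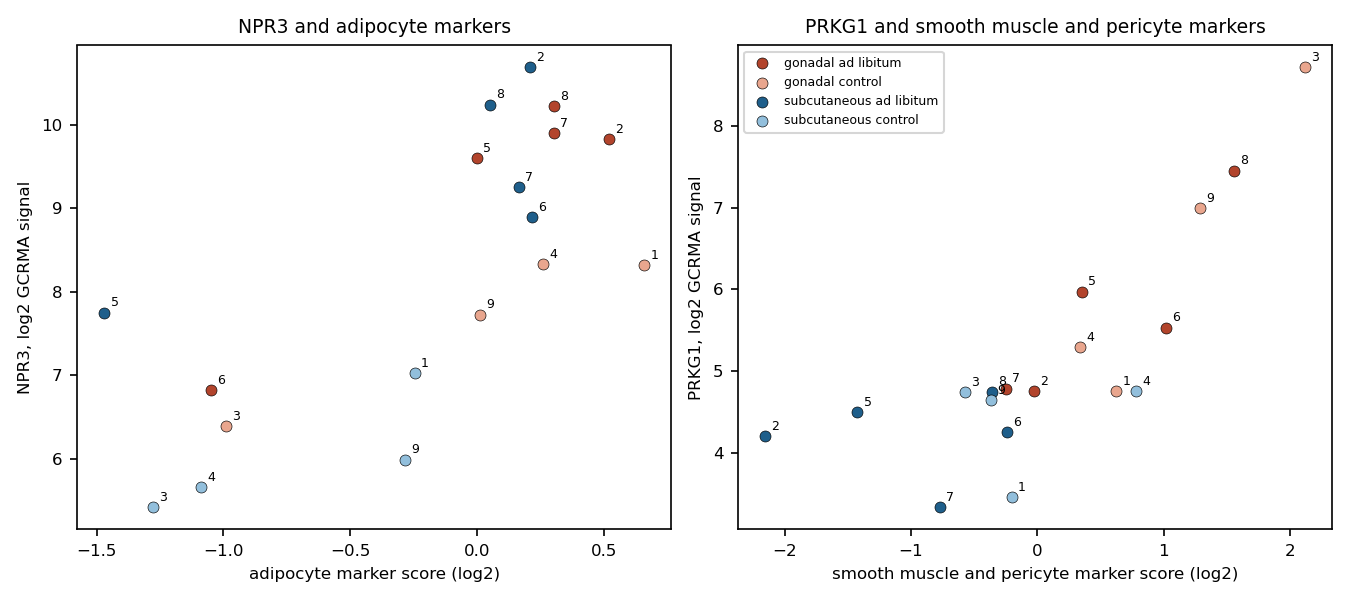
NPR3 log2 signal against the adipocyte marker score (left) and PRKG1 log2 signal against the smooth muscle and pericyte marker score (right), 1 point per array with dog numbers and colours by group. The 5 arrays with the lowest adipocyte scores have NPR3 between 5.42 and 7.75, and the 3 arrays with PRKG1 above 6 are the 3 with the highest smooth muscle scores.

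Around the members stands a list of 38 genes of the same pathway, from peptide processing through cyclic GMP synthesis and breakdown to kinase targets, lipolysis and thermogenesis. Of these 34 were on the array with a symbol of their own and 22 passed the filter, each read by its brightest probe set. For feeding 0 of the 22 passed in gonadal fat and 0 in subcutaneous fat. With 1 probe set per gene 0% of 8650 genes passed in gonadal and 2.31% in subcutaneous fat. The subcutaneous share was unstable: of all 21484 probe sets 506 passed (2.36%), but 3 without dog 1, 1 with the actin covariate, 5 without the 4 arrays with foreign transcripts and 2703 without dog 5. The counts at an unadjusted limma p under 0.05 were 0 in gonadal and 4 in subcutaneous fat, beside 2.47% and 23.7% of all probe sets.

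The lipolysis genes stood highest among the subgroups for feeding in subcutaneous fat. All 4 were on the higher side there, with a median of 1.19 log2 units against 0.00 over all genes, and in gonadal fat 2 of 4 were, with a median of 0.15. LIPE, hormone-sensitive lipase, read 11.67, 9.11, 11.70, 11.37 and 10.79 in subcutaneous fat of ad libitum dogs and 9.63, 8.11, 9.15 and 9.62 in control dogs. Ad libitum dog 5 lay among the controls and the other 4 above them, a difference of 1.80 ± 0.63 (limma adjusted p = 0.113). ABHD5, the activator of adipose triglyceride lipase, read 7.55, 5.46, 7.53, 7.46 and 7.31 in ad libitum dogs and 5.27, 5.24, 4.85 and 6.22 in control dogs, a difference of 1.67 ± 0.60 (adjusted p = 0.123). Dog 5 was again the low ad libitum array, and it had the lowest adipocyte score of the 18 (-1.47). Without that array LIPE passed at 2.25 (limma adjusted p = 0.0206) and ABHD5 at 2.07 (adjusted p = 0.0280), in a fit where 13.8% of all probe sets passed against 2 of the 22 pathway genes. PLIN1 and PNPLA2, a droplet coat protein and adipose triglyceride lipase itself, differed by 0.71 ± 0.98 and 0.56 ± 0.50. The adipocyte score, whose list holds PLIN1, had a median of 0.16 in subcutaneous ad libitum and -0.69 in subcutaneous control arrays. Its part in these differences was not tested.

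No gene of the other subgroups passed for feeding. The 4 genes of the kinase and target subgroup had a median difference of -0.42 log2 units in subcutaneous and -0.48 in gonadal fat. Among them PLN, phospholamban, which restrains the calcium pump of muscle cells, differed by -1.77 ± 0.91 in subcutaneous fat (limma adjusted p = 0.244), with overlapping groups and its highest value, 7.97, in control dog 4. The 3 thermogenic targets that passed the filter had medians of 0.33 in subcutaneous and 0.23 in gonadal fat. PDE9A, a phosphodiesterase that breaks down cyclic GMP, differed by 1.62 ± 0.74 log2 units in subcutaneous fat (limma adjusted p = 0.196). Control dogs 3 and 9 read 3.67 and 2.35 there, below the floor, so this difference is not read as a size. ABCC5, which exports cyclic nucleotides, differed by -0.61 ± 0.28 in subcutaneous fat (limma adjusted p = 0.198). The 4 genes of the nitric oxide arm, which makes cyclic GMP through soluble guanylyl cyclase, had a median difference of -0.21 in subcutaneous and -0.11 in gonadal fat. UCP1, the uncoupling protein of brown fat, read 10.01 in subcutaneous fat of ad libitum dog 2, the array with the highest NPR3, while the other 17 arrays lay below the floor, so it was not tested.

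For depot 1 of the 22 genes passed in control dogs and 2 in ad libitum dogs, where 2.95% and 7.46% of all genes passed. PDE5A, the cyclic GMP phosphodiesterase blocked by sildenafil, read 8.01, 10.42, 8.32 and 9.00 in gonadal fat of control dogs and 7.36, 7.71, 7.10 and 6.37 in their subcutaneous fat. The depots did not overlap, as in 5.46% of all probe sets on the higher side, and the difference was 1.80 ± 0.42 log2 units, or 3.49-fold (limma adjusted p = 0.0312). In ad libitum dogs it read 8.36, 8.36, 8.28, 7.98 and 9.14 in gonadal and 7.27, 7.15, 7.16, 7.02 and 7.87 in subcutaneous fat, again without overlap, as in 4.18% of all probe sets on the higher side. It differed there by 1.13 ± 0.38 (limma adjusted p = 0.0786), passing with the dog as a random block (adjusted p = 0.0390) or a fixed block (adjusted p = 0.0367). PDE5A was higher in gonadal fat in 9 of 9 dogs. Its highest gonadal values, 10.42 in control dog 3, 9.14 in ad libitum dog 8 and 9.00 in control dog 9, came from the arrays with the highest smooth muscle scores. The part of smooth muscle content in the PDE5A difference was not tested. PDE5A did not pass in control dogs without dog 3, 4, 7 or 9, without the 4 arrays with foreign transcripts, with no filter, with the compared arrays alone or with the actin covariate.

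PLN was higher in gonadal than in subcutaneous fat of ad libitum dogs, by 3.07 ± 0.86 log2 units, or 8.38-fold (limma adjusted p = 0.0404). It read 7.46, 7.56, 8.25, 6.42 and 10.06 in their gonadal and 3.16, 4.73, 5.67, 4.75 and 6.10 in their subcutaneous fat, without overlap. Over all probe sets 4.18% were without overlap in that direction, and the value of 3.16 in dog 2 lies below the floor. Its highest gonadal values, 10.94 in control dog 3, 10.57 in control dog 9 and 10.06 in ad libitum dog 8, came from the same 3 arrays as the highest smooth muscle scores. The part of smooth muscle content in it was not tested. PLN did not pass with no filter, without dog 2, 5, 6, 7 or 8, nor without the 4 arrays with foreign transcripts, the gonadal array of dog 6 or the subcutaneous array of dog 5.

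MME, neprilysin, a surface protease that degrades natriuretic peptides, was lower in gonadal than in subcutaneous fat of ad libitum dogs, with a difference of -1.98 ± 0.55 log2 units, or 3.95-fold (limma adjusted p = 0.0388). It read 4.16, 4.61, 3.32, 5.55 and 6.52 in their gonadal and 6.81, 6.35, 6.95, 6.90 and 7.06 in their subcutaneous fat, with overlapping groups. MME was lower in gonadal fat in 9 of 9 dogs, but in control dog 4 the difference was only -0.002 log2 units. The gonadal values of ad libitum dog 6 (3.32) and control dog 3 (3.46) lay below the floor. In control dogs it differed by -1.24 ± 0.61 (adjusted p = 0.271). It did not pass with no filter, with the compared arrays alone, without dog 2, 5, 6, 7 or 9, nor without the 4 arrays with foreign transcripts or the gonadal array of dog 6. The progenitor marker score (PDGFRA, DPP4, CD34 and PI16) was -1.48 to -0.10 in gonadal and -1.29 to 1.40 in subcutaneous fat of ad libitum dogs, and its part in the MME difference was not tested. CORIN, which activates the atrial peptide, was at 6.00 in gonadal fat of ad libitum dog 6 and 4.14 in subcutaneous fat of control dog 4, the 2 arrays with ciliated-cell transcripts, and below the floor in the other 16.

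Genes most like NPR3 were taken as those with the highest Pearson correlation with its brightest probe set among 8649 other genes. Over the 18 arrays of 9 dogs they were CCDC50 (0.946), TMEM154 (0.931), ARL6 (0.922), GMFB (0.921) and FKBP1B (0.919), and the most opposed were TM2D3 (-0.918), NUPR1 (-0.916), PPIA (-0.911), SNRNP70 (-0.892) and EIF4A3 (-0.886). After the 4 group means were removed the closest were HADH (0.966), ASPA (0.944), ACVR1C (0.942), LOC491922 (0.936) and CCDC50 (0.929), and the most opposed SLBP (-0.940), LGR4 (-0.937), CLK2 (-0.936), NFIC (-0.925) and CD59 (-0.922). CCDC50 was the gene on both lists. High correlations were common in these arrays, with 19.8% of all genes above 0.5 over the 18 arrays.

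Among the pathway and marker genes ABHD5 stood 56th and LIPE 95th in likeness to NPR3 over the 18 arrays, with correlations of 0.868 and 0.852. With the group means removed PNPLA2 stood 9th (0.914) and ADIPOQ, an adipocyte marker, 12th (0.909). The other receptors and the kinase were far from it, with correlations of -0.070 for NPR1, -0.443 for NPR2 and -0.088 for PRKG1 over the 18 arrays. These are descriptions over arrays that share dogs, depots and RNA quality.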

How the data were processed

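Gene expression was measured on Affymetrix canine arrays from RNA of gonadal and subcutaneous fat, labelled with a one-cycle protocol per the labels. The deposited table holds log2 values from GCRMA per the submitters' processing notes, 43035 probe sets by 18 arrays. The base of the logarithm is read from the range of the values (0.68 to 16.51), and the GCRMA version is not given in the sources used here. Platform annotation gave 1 symbol to 29254 of 42924 probe sets other than controls, several to 439 and listed none for 13231. Scanner files were not used here, and the number of arrays, not a depth, limits the precision.

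Probe sets at log2 4 or more in at least 4 arrays were tested (21484). The 4 group means were fitted without a block in limma 3.58.1 (R 4.3.3, statmod 1.5.0), with two-sided tests, Benjamini-Hochberg adjustment over all tested probe sets and a threshold of 0.05. Where a group mean lies below the floor it is set to the floor and the fold is a bound. A ± gives limma's standard error where it is not marked as SD, and an adjusted p of 1 is rounded from 0.99994. Each gene is read by its brightest probe set on average. Named are all members, every pathway gene past the threshold, up to 2 per subgroup with the smallest p, and the 5 genes most and least like NPR3. Members and lists were chosen with earlier results of these data known. CORIN, UCP1, PLIN1, PNPLA2 and ADIPOQ were named after their values were seen.

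Depots are paired by the animal number in the labels, and deviations of the 2 arrays of a dog correlated at -0.05 to 0.53, above 0.1 in 6 of 9 dogs. No arrays were identical. Nothing says that any sample was processed in duplicate, and each array is 1 dog and depot. On simulated data with 200 changed probe sets of 21484, in gonadal fat 84% of changes of 2 log2 units and 45% of 1 unit were recovered, with 9 false of 138 calls. The simulated noise was independent between probe sets, without shared cell content, RNA quality or dog effects. These shares therefore do not carry over to the real arrays, where 0 of 21484 probe sets passed for feeding in gonadal fat. Alternatives were a filter at log2 6 or none, quantile normalization again, median centring, trended robust moderation, a fit to the compared arrays alone, a random or fixed block for the dog, an actin 3' minus 5' covariate, omission of the 4 arrays with foreign-tissue transcripts, and omission of each dog.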

Additional observations from a re-analysis of the deposited data

Results flagged for a closer look

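Of 135 groups of 4 or 5 arrays examined, 20 had 1 array far from the rest by Dixon's gap test, which chance gives in about 1 of 20 groups. The arrays of gonadal ad libitum dog 6 and subcutaneous ad libitum dog 5 recur among them, and probe sets of 1 gene are not separate cases.

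In gonadal fat of ad libitum dog 6 the 4 NPR3 probe sets were low, at 6.82, 5.29, 5.61 and 4.70 log2 units, where the nearest dogs of the group read 9.60, 8.47, 8.37 and 7.77. On the same array NPR3 minus NPR1 was -1.99, IDE, a protease that can degrade the peptides, was low at 5.71, PDE1A, a calcium-activated phosphodiesterase, at 4.61 and ABHD5 at 5.09, and CORIN was high at 6.00.

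In subcutaneous fat of ad libitum dog 5 PLIN1 was low at 5.54 and ABHD5 at 5.46. In subcutaneous fat of ad libitum dog 2 UCP1 was high at 10.01, against 3.25 in the nearest dog, and ATF2, a transcription factor downstream of p38 kinase, was high at 8.00.

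Among control dogs the gonadal array of dog 1 was high for the dimmest NPR2 probe set at 8.50. That of dog 3 was low for NPR3 minus NPR1 at -1.89, and that of dog 9 high for GUCY1B1, a subunit of soluble guanylyl cyclase, at 11.05. That of dog 4 was high for PDE1C at 4.14 and for MAPK14, p38 kinase, at 8.85. In subcutaneous fat PRKG1 was low at 3.46 in dog 1 and PDE1A low at 5.87 in dog 4.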

How the results depend on the processing

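The NPR3 difference in subcutaneous fat (3.34 log2 units) was 2.30 with the actin covariate and 3.01 to 3.74 without each dog in turn. It stayed positive under all 11 other settings and all 9 omissions. Omission of the 4 arrays with foreign-tissue transcripts left only dogs 1 and 9, at 7.02 and 5.99, as subcutaneous controls. In gonadal fat the NPR3 difference kept its sign throughout, between 1.15 and 2.22, and 0 member probe sets passed under any setting. NPR3 minus NPR1 in gonadal fat (1.38) was 2.13 without gonadal dog 6, 2.21 against NPR2, 1.77 against the adipocyte marker median, and 0.86 to 2.13 without each dog in turn, lowest without dog 3. For depot in ad libitum dogs the members called, 0 in the report, were 1 with the filter at log2 6, quantile normalization, only the arrays of the comparison, the fixed dog block and the actin covariate, 2 with the random dog block, 3 without the 4 arrays with foreign-tissue transcripts, and 0 to 1 without each dog in turn. NPR1 was the call except under the fixed block (NPR2), with NPR2 added in the fits with 2 and 3 calls. In control dogs the count was 0 under all 12 other settings. Pathway genes called for feeding in subcutaneous fat, 0 in the report, were 1 without gonadal dog 6 (ABHD5), 2 without subcutaneous dog 5 (LIPE and ABHD5), and 0 to 2 without each dog, while 506 of all probe sets became 1315 and 2956 in the first 2 of these fits. For depot in control dogs the 1 call, PDE5A, became 0 with no filter, only the arrays of the comparison, the actin covariate or without those 4 arrays, and 0 without dog 3, 4, 7 or 9 (range 0 to 1). For depot in ad libitum dogs the 2 calls became 0 with no filter or without those 4 arrays, 4 with the random dog block (PDE5A and MAPK14 added), 3 with the fixed block (PDE5A added), 2 with only the arrays of the comparison but with PDE5A in place of MME, 1 without gonadal dog 6 (MAPK14), 1 without subcutaneous dog 5 (MME), and 0 to 3 without each dog. The dog block ended no call. Leaving out gonadal dog 6 or subcutaneous dog 5, and omitting each dog from the readings against NPR2 and the adipocyte markers, was chosen with their values known, and the causes of these shifts were not tested. With 4 and 5 dogs per group, members at or near the floor (PRKG1, NPPC, OSTN) have the least precise values.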
